A study of Mus musculus with 12 samples.

Results

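Interferons are secreted proteins that switch on a shared set of defence genes, and 40 of those genes are described here in 12 mouse tumors. They are 20 genes best known as targets of type I interferons, 10 known as targets of interferon gamma, and 10 that build or load MHC class I, the surface molecule that shows peptides to CD8 T cells. The members were picked by name from known biology, with earlier results of these data known. They are 40 of the 38894 genes to which the transcripts were summed. All 40 passed the filter on low counts, which left 17599 genes to test. The split into 3 lists follows the usual inducer of each gene, although many of the genes answer to both kinds of interferon.

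The tumors came from Rd76-9 mouse rhabdomyosarcoma cells injected into the flank of wild-type C57/Bl6J mice 8 to 12 weeks old, which have an intact immune system, and were collected on day 16. Tumors m1, m2 and m3 received vehicle, tumors m4, m5 and m6 vincristine (VCR, a drug that blocks microtubule assembly) at 0.25 mg/kg every 7 days, tumors m7, m8 and m9 RCM1 (a small-molecule inhibitor of the transcription factor FOXM1) at 8 µg per injection in folic acid-coated nanoparticles every 48 hours, and tumors m10, m11 and m12 both drugs (the combination). Vehicle means empty nanoparticles and saline by the design text, while the treatment label of m1, m2 and m3 also names the RCM1 nanoparticle. Those 3 tumors were taken as vehicle from their titles. Each library was made from the RNA of a whole tumor, so tumor cells, infiltrating immune cells and neighbouring tissue are mixed, and fewer cells of a type cannot be told apart from less RNA per cell. The labels name a kit for stranded libraries yet describe the libraries as unstranded, so reads of genes that overlap on opposite strands may be mixed. Poly-A RNA was sequenced, with 29342195 to 32108055 estimated counts per tumor.

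Type I interferons (the interferon alphas and interferon beta) bind the receptor of Ifnar1 and Ifnar2 on almost every cell and act through a transcription factor complex that holds Stat2 and Irf9. Interferon gamma is made mainly by activated T cells and natural killer (NK) cells, binds the receptor of Ifngr1 and Ifngr2, and induces Irf1, the guanylate-binding proteins and the genes of antigen processing. In tumors, MHC class I on the cancer cells is what lets cytotoxic T cells recognize them.

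The labelled tumor type was checked against muscle lineage markers. Myod1, a myogenic master regulator, stood in TPM (the deposited level, corrected for transcript length) at 0.0306, 0 and 0 in vehicle tumors m1 to m3, 2.16, 2.06 and 1.153 in VCR tumors m4 to m6, 0.0312, 0 and 2.19 in RCM1 tumors m7 to m9 and 0.639, 0.688 and 0.414 in combination tumors m10 to m12. Myog, a factor of muscle differentiation, stood at 0.0767, 0 and 0.0374 in vehicle tumors m1 to m3, 2.44, 1.79 and 1.72 in VCR tumors m4 to m6, 0, 0.328 and 1.16 in RCM1 tumors m7 to m9 and 0.608, 0.978 and 1.89 in combination tumors m10 to m12. Desmin (Des), a muscle intermediate filament, stood at 5.77, 4.45 and 5.88 in vehicle tumors m1 to m3, 104, 217 and 74.9 in VCR tumors m4 to m6, 6.41, 9.64 and 317 in RCM1 tumors m7 to m9 and 69.5, 113 and 29.5 in combination tumors m10 to m12. Myod1 and Myog were thus at or near 0 in all vehicle tumors, and all 3 genes were higher in every VCR tumor than in every vehicle tumor. These 3 belong to a list of 6 rhabdomyosarcoma markers, which summed to 57.9, 67.9 and 72.5 TPM in vehicle tumors m1 to m3. Most of that sum came from the 3 other listed genes, Myf5, Pax7 and Igf2. Of the 5 listed markers tested, 3 had a positive and 2 a negative log2 fold change with VCR. Ckm, a marker of adult muscle, stood at 15.5, 0.0447 and 0.121 TPM in vehicle tumors m1 to m3, 538, 1641 and 217 in VCR tumors m4 to m6, 7.98, 13.8 and 2911 in RCM1 tumors m7 to m9 and 302, 689 and 44.1 in combination tumors m10 to m12 and was also higher in every VCR tumor than in every vehicle tumor. Whether its RNA came from neighbouring muscle or from the tumor was not tested. The tumors also differ in sex-linked transcripts: Xist was above 5 TPM in m1, m2, m5, m7 and m10, whereas Eif2s3y, a Y-linked gene, was above 1 TPM in the 7 other tumors.

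No member was called in any of 6 comparisons by edgeR at an adjusted p under 0.1, the threshold used throughout. Vehicle tumor m1 and combination tumors m11 and m12 held the 3 highest levels of 10 of 10 interferon gamma genes, 10 of 10 MHC class I genes and 10 of 20 type I genes, in CPM (counts scaled to library size). Among all genes tested, the same 3 tumors were highest for 2.63%. RCM1 tumor m8 was lowest for 14 type I genes, 9 interferon gamma genes and 5 MHC class I genes, against 7.67% of all genes. Tumor m12 was highest for 20 of 20 type I genes and 8 of 10 interferon gamma genes, against 6.83% of all genes, while m12 and m1 each led 5 of the 10 MHC class I genes in CPM (3 and 7 in TPM). Tumor m1 led no type I gene, and it was highest for 13.2% of all genes. Tumors m1, m8, m11 and m12 were singled out by the members' own levels. The shares of all genes set beside them are therefore a description and not a test.

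**Figure D1:**
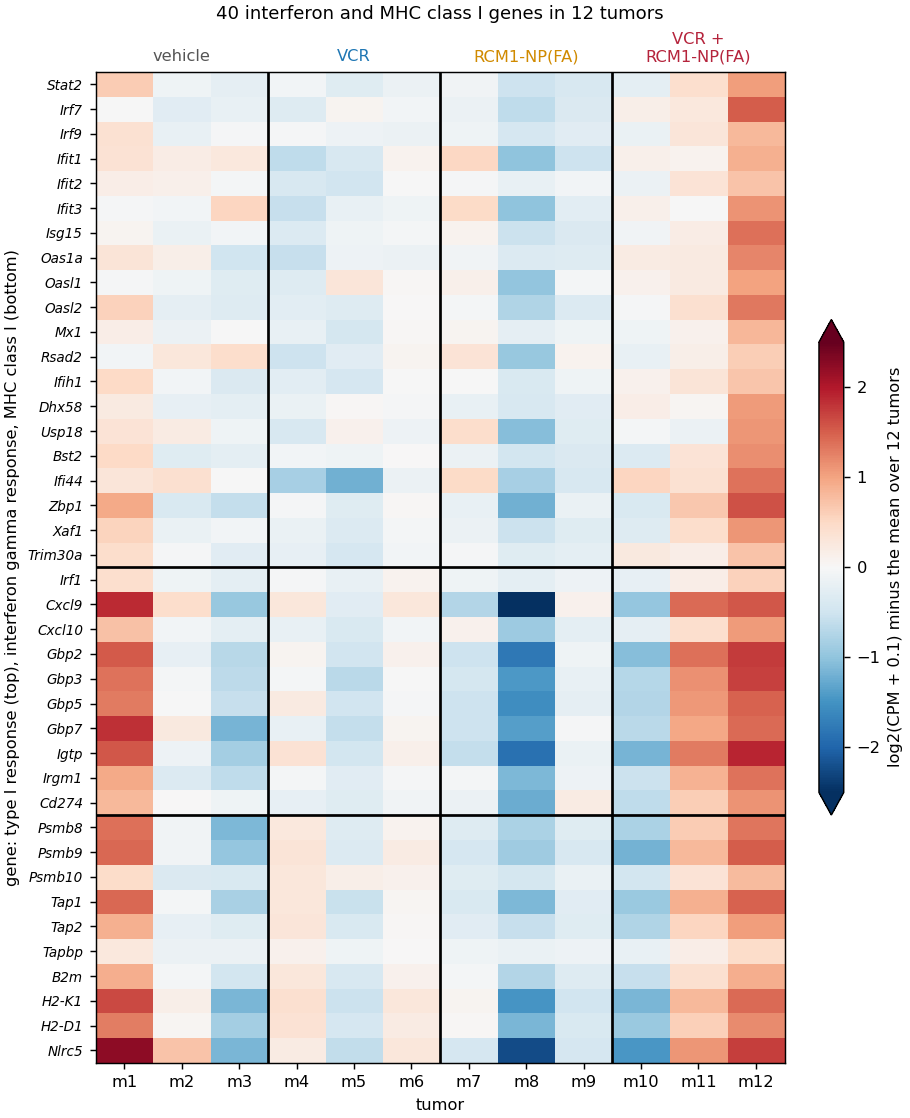
Level of each of the 40 genes (y axis, type I list on top, interferon gamma list in the middle, MHC class I list at the bottom) in each of the 12 tumors (x axis, 3 per group), as log2(CPM + 0.1) minus the gene's mean over the 12 tumors. Red columns at m1, m11 and m12 and blue at m8 run through the lower lists, where those 3 tumors are the highest for 10 of 10 genes each, while m12 is the highest for all 20 type I genes.

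Apart from interferon gamma, the interferons themselves were close to undetectable. Of 13 ligand genes listed, 6 had no counts in any tumor, 9 never had more than 3 counts, and 1 passed the filter. That was Ifng, the gene of interferon gamma, with TPM of 1.25, 0.535 and 0 in vehicle tumors m1 to m3, 0.511, 0.277 and 0.709 in VCR tumors m4 to m6, 0.101, 0.0472 and 0.582 in RCM1 tumors m7 to m9 and 0.0492, 1.12 and 2.26 in combination tumors m10 to m12. Its highest values fell in m12, m1 and m11, the tumors that also led the interferon gamma and MHC class I members, and the 4 groups overlap. Ifng was not called in any comparison, with edgeR log2 fold changes of -0.16 with VCR (SE 1.13, adjusted p 0.952), -1.20 with RCM1 (SE 1.24, adjusted p 0.797) and 0.99 with the combination (SE 1.06, adjusted p 0.844). The combination differed by 1.147 from VCR (SE 1.07, adjusted p 0.87) and by 2.19 from RCM1 (SE 1.18, adjusted p 1), and the interaction was 2.35 (SE 1.64, adjusted p 0.541), all by edgeR. At this depth a ligand at 3 counts or fewer cannot be compared between groups.

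The receptors of both kinds of interferon were present in every tumor. Ifnar1 lay between 28.8 and 38.9 TPM, Ifnar2 between 42.9 and 55.1 TPM, Ifngr1 between 101 and 143 TPM and Ifngr2 between 40.5 and 50.3 TPM over the 12 tumors. Of the 9 listed genes of interferon receptors and their kinases, edgeR called 0 in each of the 6 comparisons, with 0 at an unadjusted p under 0.05 against vehicle and 1 in each of the other 3 comparisons, and limma-voom and DESeq2 also called 0. The 1 gene was Ifnlr1 each time, a receptor of lambda interferons, which ran from 0.0260 TPM in m3 to 0.335 TPM in m1. Its log2 fold changes by edgeR were 1.33 for the combination against VCR (SE 0.57, adjusted p 0.855), 1.59 against RCM1 (SE 0.58, adjusted p 1) and 2.05 for the interaction (SE 0.83, adjusted p 0.321). The summed level of the 9 genes ran from 328 TPM in m5 to 427 TPM in m1. The 14 tested genes that sense nucleic acids or relay that signal summed to 322 TPM in m8 and 433 TPM in m12, and 0 were called by edgeR, with 1 at an unadjusted p under 0.05 in each treatment against vehicle, 2 in the combination against VCR, 4 against RCM1 and 4 in the interaction. By DESeq2 with all 12 tumors, 1 of them was called, in the interaction. For the 6 listed feedback inhibitors of interferon signalling, edgeR, limma-voom and DESeq2 called 0, the summed level lay between 145 and 199.9 TPM, and at an unadjusted p under 0.05 there was 1 with RCM1 and 1 in the combination against RCM1.

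Among the type I genes, Irf7 is the transcription factor that amplifies interferon production. Irf7 (NCBI gene 54123) had TPM of 28.3, 23.4 and 22.4 in vehicle tumors m1 to m3, 20.8, 25.9 and 26.2 in VCR tumors m4 to m6, 24.4, 16.8 and 21.3 in RCM1 tumors m7 to m9 and 31.6, 33.3 and 75.7 in combination tumors m10 to m12. All 3 combination tumors lay above the 9 others, m12 far above m10 and m11, and m8 was lowest. The group means were 24.7 ± 3.13 with vehicle, 24.3 ± 3.05 with VCR, 20.8 ± 3.84 with RCM1 and 46.9 ± 25.0 TPM with the combination (SD, n = 3 each). Its edgeR log2 fold change against vehicle was 0.054 with VCR (SE 0.30, adjusted p 0.936), -0.21 with RCM1 (SE 0.30, adjusted p 0.869) and 0.94 with the combination (SE 0.30, adjusted p 0.668). Without m12 the combination value was 0.36, and without m8 the RCM1 value was -0.092. With VCR the sign rested on single tumors, with -0.022 without m2 and -0.037 without m5.

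Isg15 encodes a ubiquitin-like protein that is joined to other proteins after interferon. Isg15 (NCBI gene 100038882) was measured at 56.1, 46.2 and 45.0 TPM in vehicle tumors m1 to m3, 37.1, 42.1 and 49.5 in VCR tumors m4 to m6, 53.0, 32.9 and 38.6 in RCM1 tumors m7 to m9 and 49.4, 58.8 and 128 in combination tumors m10 to m12. Only m12 stood apart, m11 and m1 followed, and the combination overlapped vehicle through m10. Log2 fold changes in edgeR came to -0.11 with VCR (SE 0.31, adjusted p 0.874), -0.20 with RCM1 (SE 0.31, adjusted p 0.885) and 0.69 with the combination (SE 0.31, adjusted p 0.682). Leaving out m12 brought the combination value from 0.69 to 0.11, and the RCM1 value was -0.075 without m8. The VCR value lay between -0.19 without m6 and -0.019 without m4.

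Bst2 (tetherin) holds budding viruses at the cell surface and was the most abundant type I member in TPM. Bst2 (NCBI gene 69550) reached 262, 146 and 139 TPM in vehicle tumors m1 to m3, 157, 145 and 179 in VCR tumors m4 to m6, 156, 121 and 135 in RCM1 tumors m7 to m9 and 143, 226 and 382 in combination tumors m10 to m12. Tumors m12, m1 and m11 were high, and the other 9, m10 included, lay close together, so vehicle and combination overlap. Against vehicle, edgeR gave log2 fold changes of -0.090 with VCR (SE 0.31, adjusted p 0.894), -0.36 with RCM1 (SE 0.31, adjusted p 0.755) and 0.48 with the combination (SE 0.31, adjusted p 0.752). The VCR and RCM1 values were 0.22 and -0.051 without m1, and the combination value was -0.0014 without m12 (0.79 without m1).

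Ifi44, an interferon-induced gene of little known function, had the largest VCR effect of the type I list. Ifi44 (NCBI gene 99899) had low TPM values of 4.27, 4.56 and 3.11 in vehicle tumors m1 to m3, 1.75, 1.30 and 3.03 in VCR tumors m4 to m6, 4.64, 1.78 and 2.53 in RCM1 tumors m7 to m9 and 5.08, 4.40 and 8.35 in combination tumors m10 to m12. Every VCR tumor lay below every vehicle tumor, and every combination tumor lay above every VCR tumor, while vehicle and combination overlap. The log2 fold changes by edgeR were -0.92 with VCR (SE 0.38, adjusted p 0.189), -0.39 with RCM1 (SE 0.38, adjusted p 0.783) and 0.59 with the combination (SE 0.37, adjusted p 0.747). The RCM1 value of Ifi44 was -0.13 without m8 and -0.86 without m7, and without m12 the combination value was 0.22. DESeq2 called the VCR effect with an adjusted p of 0.0852 in all 12 tumors and of 0.0294 in the compared groups alone, and edgeR without m6 gave 0.0976, within a range of 0.0294 to 0.525 over 22 alternatives.

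The other 16 type I members are given by their lowest and highest TPM, and m12 held the highest value of each. Stat2, a subunit of the factor downstream of the type I receptor, ran from 13.8 in m8 to 41.0. Irf9, the DNA-binding subunit of that factor, ran from 14.4 in m8 to 34.7. The Ifit proteins bind viral RNA: Ifit1 ran from 3.70 in m8 to 14.0, Ifit2 from 6.97 in m5 to 17.2 and Ifit3 from 8.20 in m8 to 36.7. Oas1a, an enzyme that makes the 2-5A signal for RNA decay, ran from 13.3 in m4 to 47.6. Its relatives Oasl1 and Oasl2 ran from 3.71 to 14.6 and from 18.0 to 76.3, each lowest in m8. Mx1, an antiviral GTPase, ran from 5.64 in m5 to 14.6. Rsad2 (viperin) ran from 3.89 in m8 to 11.7. The cytosolic RNA sensors Ifih1 and Dhx58 ran from 3.47 in m5 to 7.87 and from 5.33 in m8 to 15.0. Usp18, which removes Isg15 from proteins and dampens the receptor, ran from 3.09 in m8 to 14.4. Zbp1, a sensor of Z-form nucleic acids that can start cell death, ran from 16.5 in m8 to 97.4. Xaf1, a promoter of apoptosis, ran from 19.1 in m8 to 56.7, and Trim30a, a ubiquitin ligase family member, from 5.40 in m5 to 12.6.

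**Figure D2:**
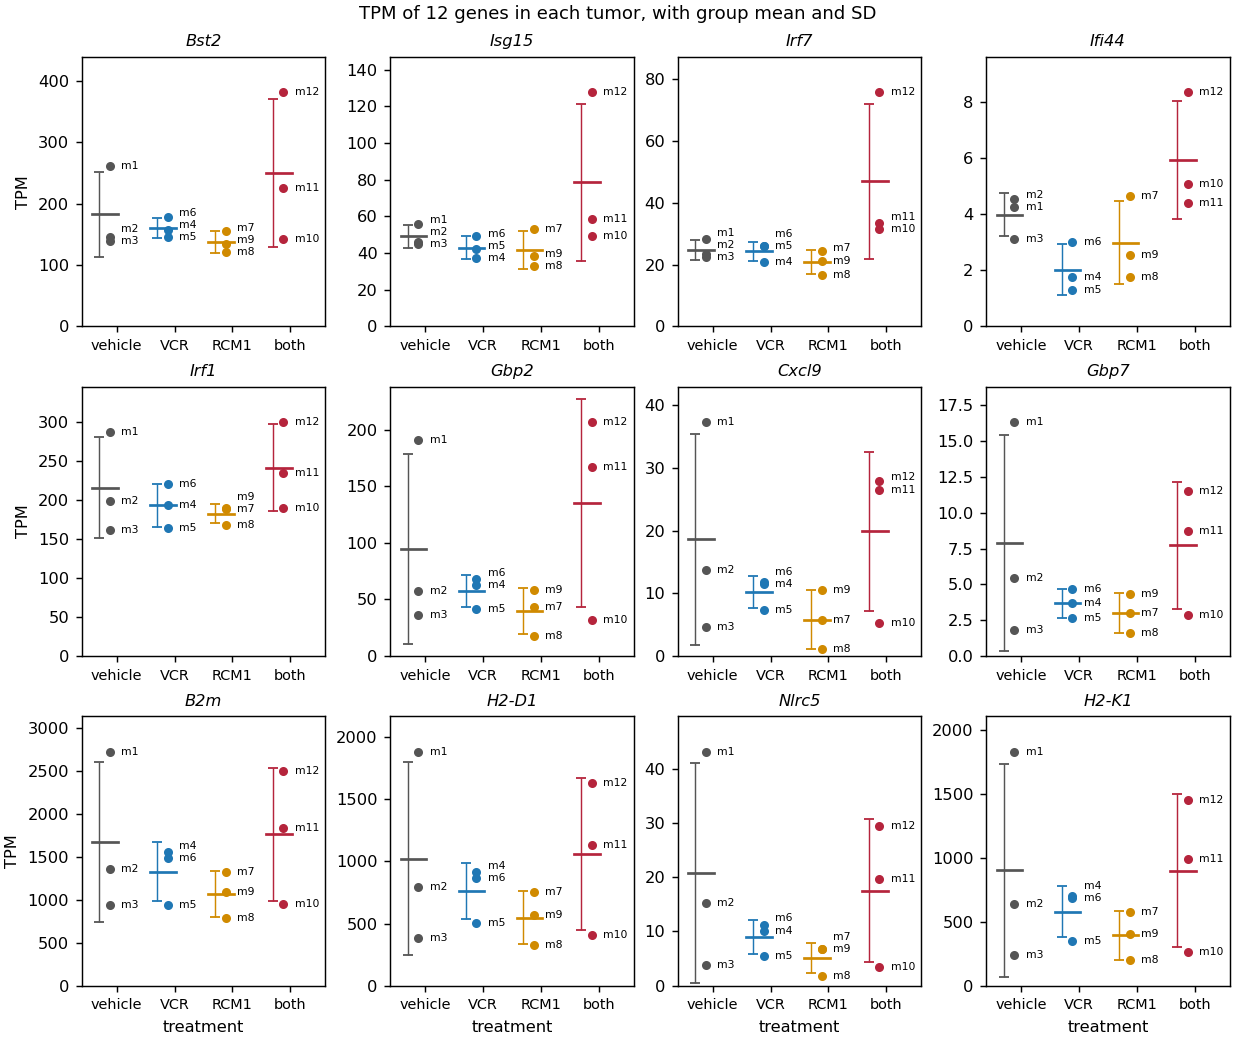
TPM (y axis) of the 12 genes given in full, in each tumor (points, named) of each treatment group (x axis), with the group mean (horizontal bar) and SD (vertical bar, n = 3). Irf7 is the gene whose 3 combination tumors, at 31.6, 33.3 and 75.7, lie above all others, while m1, m11 and m12 hold the 3 highest values of each gene in the middle and bottom panels.

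In the interferon gamma list, Irf1 is the transcription factor induced at once by interferon gamma and was its most abundant member in TPM. Irf1 (NCBI gene 16362) was present at 288, 199 and 162 TPM in vehicle tumors m1 to m3, 194, 165 and 221 in VCR tumors m4 to m6, 189, 168 and 190.0 in RCM1 tumors m7 to m9 and 189, 235 and 300.3 in combination tumors m10 to m12. Tumors m12, m1 and m11 were the highest, the other 9 were close together, and all groups overlap. The edgeR log2 fold changes were small, at -0.087 with VCR (SE 0.19, adjusted p 0.832), -0.21 with RCM1 (SE 0.20, adjusted p 0.777) and 0.17 with the combination (SE 0.19, adjusted p 0.859). Without m1 the VCR and RCM1 values were 0.14 and 0.019, and without m12 the combination value was -0.054 (0.40 without m1).

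Gbp2 is a guanylate-binding protein that attacks membranes of intracellular pathogens. Gbp2 (NCBI gene 14469) showed 191, 57.2 and 36.5 TPM in vehicle tumors m1 to m3, 63.0, 41.2 and 68.4 in VCR tumors m4 to m6, 43.8, 17.6 and 58.4 in RCM1 tumors m7 to m9 and 31.9, 167 and 207 in combination tumors m10 to m12. High values in m12, m1 and m11 contrast with 68.4 or less in all other tumors, and m8 is lowest. The fold changes against vehicle in edgeR, on the log2 scale, were -0.63 with VCR (SE 0.68, adjusted p 0.629), -1.20 with RCM1 (SE 0.69, adjusted p 0.613) and 0.55 with the combination (SE 0.68, adjusted p 0.871). Without m1 the VCR and RCM1 values of Gbp2 were 0.34 and -0.23, and without m12 the combination value was 0.073 in place of 0.55 (1.53 without m1).

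Cxcl9, a chemokine that draws T cells carrying the receptor Cxcr3, spanned the widest range of the 40 members, 33.9-fold from m8 to m1. Cxcl9 (NCBI gene 17329) lay at 37.4, 13.8 and 4.69 TPM in vehicle tumors m1 to m3, 11.4, 7.35 and 11.9 in VCR tumors m4 to m6, 5.79, 1.10 and 10.5 in RCM1 tumors m7 to m9 and 5.25, 26.6 and 27.9 in combination tumors m10 to m12. Tumors m1, m12 and m11 were high and m8 was far below the rest, and m3, m7 and m10 were also low, so each group but VCR held tumors far apart. The group means were 18.6 ± 16.9 with vehicle, 10.2 ± 2.501 with VCR, 5.81 ± 4.71 with RCM1 and 19.9 ± 12.7 TPM with the combination (SD, n = 3 each). By edgeR the log2 fold changes were -0.77 with VCR (SE 0.80, adjusted p 0.613), -1.63 with RCM1 (SE 0.82, adjusted p 0.556) and 0.14 with the combination (SE 0.79, adjusted p 0.979). The VCR and RCM1 values were 0.21 and -0.65 without m1. The combination value was 1.12 without m1, and -0.12, -0.21, -0.056 and -0.30 without m11, m12, m2 and m3.

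Gbp7, a relative of Gbp2, had its highest value in a vehicle tumor. Gbp7 (NCBI gene 229900) was found at 16.3, 5.47 and 1.82 TPM in vehicle tumors m1 to m3, 3.73, 2.66 and 4.69 in VCR tumors m4 to m6, 3.03, 1.63 and 4.37 in RCM1 tumors m7 to m9 and 2.89, 8.74 and 11.6 in combination tumors m10 to m12. Tumor m1 lay highest, with m12 and m11 next, m8 and m3 were lowest, and vehicle alone spanned nearly the whole range. In edgeR its log2 fold changes came out at -1.003 with VCR (SE 0.67, adjusted p 0.4), -1.34 with RCM1 (SE 0.67, adjusted p 0.556) and 0.018 with the combination (SE 0.65, adjusted p 0.997). The VCR and RCM1 values without m1 were 0.082 and -0.25. The combination value, near 0 with all tumors, was 1.10 without m1 and -0.086, -0.43, -0.21, -0.44 and -0.0012 without m11, m12, m2, m3 and m6.

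The other 6 interferon gamma members had their lowest TPM in m8 and their highest in m12. Cxcl10, the chemokine next to Cxcl9 on the chromosome, ran from 32.4 to 129. The guanylate-binding proteins Gbp3 and Gbp5 ran from 6.12 to 54.5 and from 1.54 to 13.0. The immunity-related GTPases Igtp and Irgm1, which guard membranes around engulfed microbes, ran from 14.2 to 196.6 and from 25.3 to 140.9. Cd274 encodes PD-L1, the ligand that restrains T cells, and ran from 1.997 to 10.7.

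In the MHC class I list, B2m is the light chain of every class I molecule and was the most abundant of all 40 members in TPM. B2m (NCBI gene 12010) had TPM values of 2732, 1356 and 939 in vehicle tumors m1 to m3, 1564, 936 and 1489 in VCR tumors m4 to m6, 1321, 792 and 1094 in RCM1 tumors m7 to m9 and 955, 1838 and 2501 in combination tumors m10 to m12. Tumors m1, m12 and m11 were the highest and m8 the lowest, and the groups overlap. Relative to vehicle the edgeR log2 fold changes were -0.23 with VCR (SE 0.39, adjusted p 0.767), -0.59 with RCM1 (SE 0.39, adjusted p 0.669) and 0.11 with the combination (SE 0.39, adjusted p 0.966). Without m1 the VCR and RCM1 values of B2m were 0.26 and -0.093. The combination value was 0.60 without m1, and -0.27, -0.042 and -0.15 without m12, m2 and m3. The combination against VCR turned from 0.34 to -0.035 without m12.

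The heavy chains H2-D1 and H2-K1, which form the peptide groove, had the same order of tumors as each other in TPM. B2m had that order too, apart from the place of m5. H2-D1 (NCBI gene 14964) stood at 1882, 793 and 385 TPM in vehicle tumors m1 to m3, 911, 503 and 865 in VCR tumors m4 to m6, 753, 324 and 567 in RCM1 tumors m7 to m9 and 410.0, 1133 and 1628 in combination tumors m10 to m12. H2-K1 (NCBI gene 14972) stood at 1830.4, 637 and 236 TPM in vehicle tumors m1 to m3, 703, 349 and 682 in VCR tumors m4 to m6, 578, 197 and 403 in RCM1 tumors m7 to m9 and 264, 986 and 1450.1 in combination tumors m10 to m12. For both genes m1, m12 and m11 were high and m8, m3 and m10 low, so vehicle and combination each held both high and low tumors. H2-D1 had edgeR log2 fold changes of -0.33 with VCR (SE 0.56, adjusted p 0.769), -0.84 with RCM1 (SE 0.56, adjusted p 0.67) and 0.094 with the combination (SE 0.56, adjusted p 0.981). H2-K1 had edgeR log2 fold changes of -0.54 with VCR (SE 0.69, adjusted p 0.688), -1.14 with RCM1 (SE 0.70, adjusted p 0.635) and 0.053 with the combination (SE 0.69, adjusted p 0.992). Without m1 the VCR values of H2-D1 and H2-K1 were 0.42 and 0.46, and the RCM1 values -0.088 and -0.14. The combination value of H2-D1 was 0.85 without m1, and -0.40, -0.080 and -0.28 without m12, m2 and m3. Its value against VCR was -0.068 without m12. For H2-K1 the combination value was 1.06 without m1, and -0.022, -0.51, -0.16 and -0.38 without m11, m12, m2 and m3.

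Nlrc5 is the activator protein that turns on MHC class I genes. Nlrc5 (NCBI gene 434341) measured 43.2, 15.3 and 3.87 TPM in vehicle tumors m1 to m3, 10.2, 5.46 and 11.3 in VCR tumors m4 to m6, 6.74, 1.83 and 6.73 in RCM1 tumors m7 to m9 and 3.44, 19.7 and 29.5 in combination tumors m10 to m12. Tumor m1 was highest, m12 and m11 followed, m8, m10 and m3 were lowest, and every RCM1 tumor lay below m1 and m2, while only m8 of them lay below m3. Its edgeR log2 fold changes were -1.18 with VCR (SE 0.83, adjusted p 0.431), -2.001 with RCM1 (SE 0.85, adjusted p 0.475) and -0.23 with the combination (SE 0.81, adjusted p 0.965), and the VCR and RCM1 values were the largest in size of the list. Without m1 they were -0.059 and -0.88. The combination value was 0.89 without m1, 0.24 without m10 and -0.87 without m12.

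The remaining 6 MHC class I members make, carry or load the peptides. The immunoproteasome subunits Psmb8, Psmb9 and Psmb10 ran from 31.1 in m3 to 198 in m1, from 45.9 in m10 to 278 in m1, and from 127 in m8 to 300.4 in m12, in TPM. The peptide transporter subunits Tap1 and Tap2 ran from 21.8 in m8 to 138 in m1 and from 33.3 in m10 to 107 in m12. Tapbp (tapasin), which holds the transporter to the class I molecule, was the steadiest of the 40 members, from 233 in m3 to 372 in m12.

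The spread inside groups was described list by list, and the differences between lists were not tested. The SD of log2(CPM + 0.1) within groups had a median of 0.42 over the type I genes, 0.88 over the interferon gamma genes and 0.85 over the MHC class I genes, and of 0.19 over all genes tested. The lists overlap, with SDs of 0.26 to 0.72, 0.27 to 1.30 and 0.21 to 1.33 in the same order. All 40 members lay above the median of all genes. From lowest to highest tumor, the median fold was 3.36 for type I, 8.66 for interferon gamma and 5.93 for MHC class I. Differences between the 4 groups held a median of 40.8% of a gene's variance in the type I list, 27.8% in the interferon gamma list, 19.8% in the MHC class I list and 29.1% over all genes. Within vehicle, m1 had a median of 3.89 times the CPM of m3 for the interferon gamma genes and 4.54 times for the MHC class I genes, but 1.35 times for the type I genes. Within the combination, m12 had 4.51, 4.35 and 1.99 times the CPM of m10 in the same order. Between m12 and m1, the highest tumors of their groups, the median ratio was 1.60 for type I genes (up to 2.88 for Irf7), 1.20 for interferon gamma genes and 1.01 for MHC class I genes, against 1.02 for all genes.

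**Figure D3:**
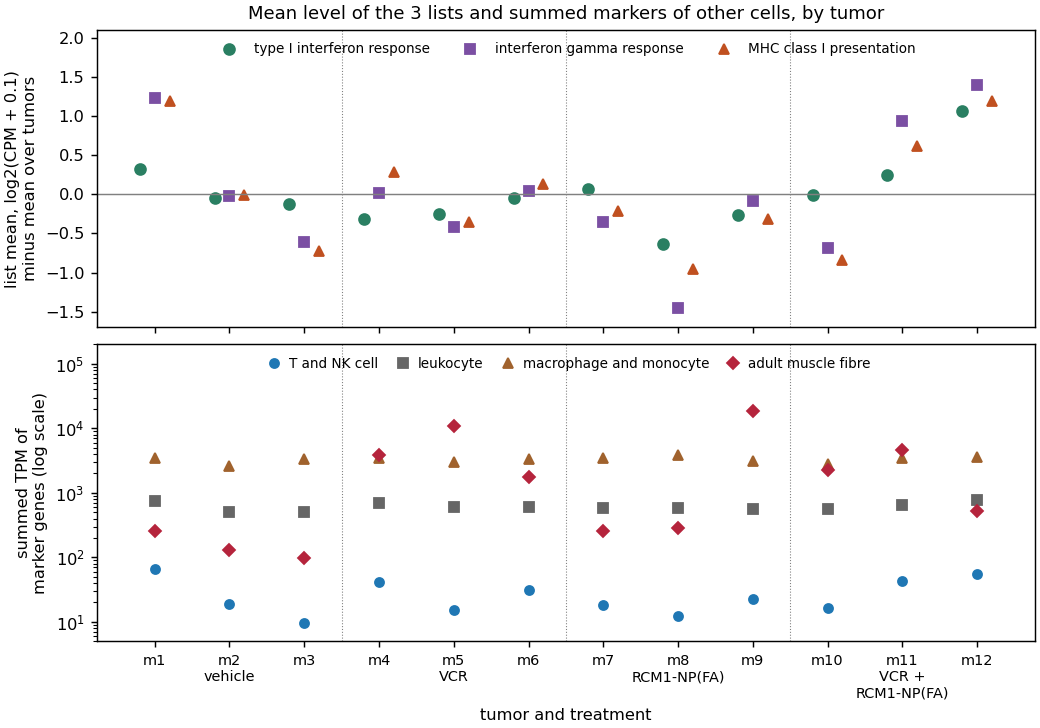
Top, mean over the genes of each list of log2(CPM + 0.1) minus the gene's mean over 12 tumors (y axis) in each tumor (x axis). Bottom, summed TPM of marker genes of 4 other cell types (log scale). The interferon gamma mean is 1.24 in m1 and 1.39 in m12 but -0.61 in m3 and -0.69 in m10, and the type I mean is 1.06 in m12 and 0.32 in m1.

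VCR alone was compared with vehicle to ask what the low dose does by itself. The medians of the log2 fold changes were -0.29 for type I, -0.52 for interferon gamma and -0.36 for MHC class I genes, against 0.0017 for all genes, and 35 of the 40 members had a negative value. Without m1 the medians were -0.050, 0.17 and 0.38 in the same order. edgeR called 0 of 40 members and 5.54% of the 17599 genes tested. Those 975 genes became 0 without m2, m4 or m5, 1 without m11 and 1998 without m6. At an unadjusted p under 0.05 there was 1 member, Ifi44 (0 to 4 when 1 tumor was left out), and 22.1% of all genes. In 3 type I genes, Ifit1, Ifit3 and Ifi44, every VCR tumor lay below every vehicle tumor, as in 10.9% of all genes, and in no member did the VCR tumors all lie above, as in 13.5% of all genes. limma-voom called 0 members, DESeq2 with all 12 tumors called Ifi44 and 13.5% of its genes, and DESeq2 with the compared groups alone called Ifi44 and Ifit1 and 8.01% of its genes.

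RCM1 nanoparticles alone were compared with vehicle in the same way. All 40 members had a negative log2 fold change, and the medians were -0.32, -1.10 and -0.86 for type I, interferon gamma and MHC class I genes, against 0.0028 for all genes. Without m1 these medians were -0.13, -0.24 and -0.095. edgeR called 0 members and 0% of the genes tested (8 genes without m3). At an unadjusted p under 0.05 there were 1 member (Nlrc5) and 9.78% of all genes, which became 0 members without m1 or m8 and 11 without m3. In no member did the RCM1 tumors all lie above or all below the vehicle tumors, as they did in 5.56% and 5.86% of all genes. DESeq2 called 0 members, with 278 of 18505 genes called in all 12 tumors and 34 of 21286 in the compared groups alone, and limma-voom called 0 genes.

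For the combination against vehicle, 38 of 40 members had a positive log2 fold change, and the medians were 0.36 for type I, 0.36 for interferon gamma and 0.20 for MHC class I genes, against 0.0016 for all genes. Without m12 they were 0.056, -0.037 and -0.30, and without m3 the MHC class I median was -0.14. Without m1 they were 0.63, 1.14 and 0.87. edgeR called 0 members and 0% of the genes tested, although 44 genes were called without m9 and 138 without m5 and m9 (0 members in each). At an unadjusted p under 0.05 there were 5 members, all type I and all higher (Irf7, Isg15, Oas1a, Oasl1 and Dhx58), and 7.3% of all genes. That count of members was 1 without m2, m3, m6 or m12, 14 without m1 and 15 without m10. In Irf7 and Oasl1 every combination tumor lay above every vehicle tumor, as in 7.1% of all genes, and in no member did they all lie below, as in 5.53% of all genes. DESeq2 called 0 members, with 60 of 16228 genes called in all 12 tumors and 251 of 22038 in the compared groups alone, and limma-voom called 0 genes.

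Adding RCM1 to VCR was read from the combination against VCR, where all 40 members had a positive log2 fold change, with medians of 0.65, 0.93 and 0.52 for type I, interferon gamma and MHC class I genes against -0.0042 for all genes. edgeR and limma-voom called 0 members, and edgeR called 0% of the genes tested. At an unadjusted p under 0.05 there were 13 members, all type I and all higher, and 5.26% of all genes. The number was 3 without m12 and 27 without m10. In 7 type I genes (Irf7, Ifit3, Oas1a, Ifih1, Dhx58, Ifi44 and Trim30a) every combination tumor lay above every VCR tumor, as in 6.03% of all genes, and in no member did they all lie below, as in 6.88% of all genes. DESeq2 fitted to the compared groups alone called Ifi44, Oas1a and Trim30a higher, and 0.265% of its genes, while DESeq2 with all 12 tumors called 0 members. For Ifi44 that adjusted p was 0.00292, at a log2 fold change of 1.51, and it ranged from 0.00292 to 1 over 22 alternatives.

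Adding VCR to RCM1 was read from the combination against RCM1, and again all 40 members had a positive log2 fold change, with medians of 0.77, 1.45 and 1.01 in the same order against -0.0057 for all genes. edgeR, limma-voom and DESeq2 called 0 members, and edgeR called 0% of the genes tested. At an unadjusted p under 0.05 there were 22 members, all higher (15 type I, 6 interferon gamma and 1 MHC class I gene), and 2.07% of all genes. Leaving out single tumors gave 2 without m12, 6 without m8 and 36 without m10. In 6 type I genes (Irf7, Oas1a, Oasl2, Ifih1, Dhx58 and Trim30a) every combination tumor lay above every RCM1 tumor, as in 3.25% of all genes, and in no member did they all lie below, as in 2.63% of all genes.

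The interaction asks whether the combination differs from the sum of the single-drug effects on the log2 scale. It was positive for all 40 members, with medians of 0.97 for type I, 2.20 for interferon gamma and 1.37 for MHC class I genes, against -0.0097 for all genes. edgeR and limma-voom called 0 members, and edgeR called 0% of the genes tested. At an unadjusted p under 0.05 there were 23 members, all higher (14 type I, 7 interferon gamma and 2 MHC class I genes), and 13.8% of all genes. It was 5 members without m1, 8 without m12 and 37 without m10. The largest interaction was 2.95 for Nlrc5 (SE 1.18, edgeR adjusted p 0.318), and without m1 it was 1.83. DESeq2 with all 12 tumors called 5 type I genes higher, Ifi44, Ifit2, Oas1a, Trim30a and Xaf1, and 2.78% of its genes. For Ifi44 the adjusted p in that fit was 0.0323, within a range of 0.0323 to 0.785 over 20 alternatives. The 6 comparisons share tumors, the vehicle tumors entering 4 of them and the combination tumors 4, so a high m1 or m12 moves several at once. The 40 members were also measured in the same tumors, so their signs and counts are not separate pieces of evidence. Of all genes tested, 50.3% were positive with VCR, 50.7% with RCM1 and 50.4% with the combination against vehicle. The share was 49.1% for the combination against VCR, 47.9% against RCM1 and 48.7% for the interaction.

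**Figure D4:**
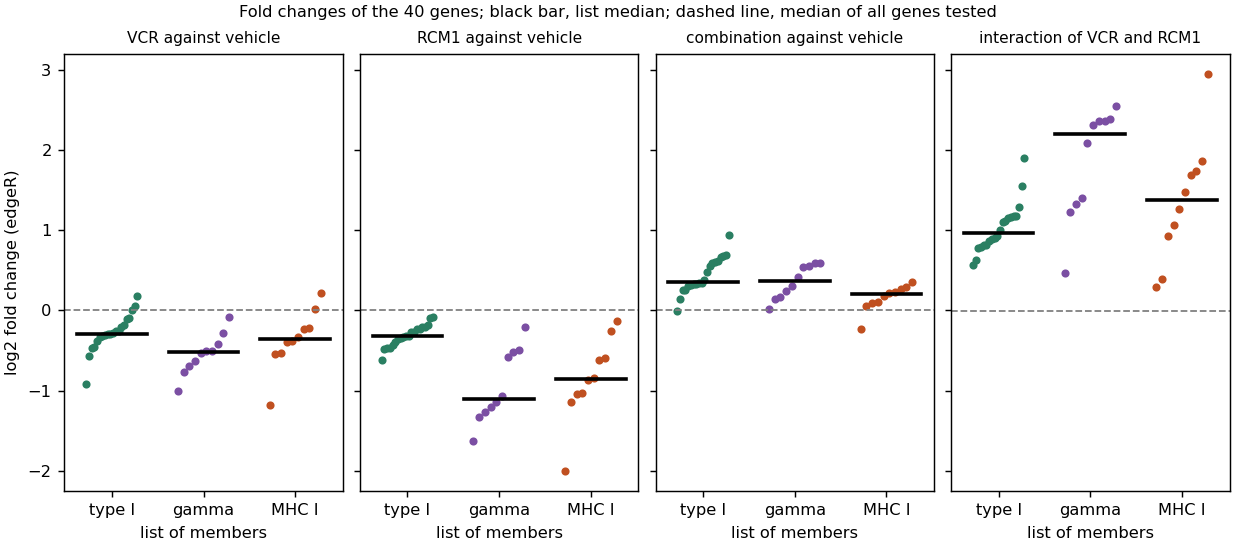
Log2 fold change by edgeR (y axis) of each of the 40 genes (points), by list (x axis), in 4 comparisons, with the list median (black bar) and the median of all genes tested (dashed line). The list medians lie at -0.29, -0.52 and -0.36 with VCR, at -0.32, -1.10 and -0.86 with RCM1, at 0.36, 0.36 and 0.20 with the combination and at 0.97, 2.20 and 1.37 for the interaction, and edgeR called no gene among them.

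Genes of the same pathways outside the 40 members were read as 3 further lists. Of 36 other type I genes tested, edgeR called 1, Ifitm1 with VCR (log2 fold change 1.14, SE 0.29, adjusted p 0.0852), and its adjusted p ranged from 0.000579 to 0.325 over 22 alternatives, of which 14 called it. Leaving out m1, m2, m4, m5 or m11 lost the call. Ifitm1, a membrane protein that blocks virus entry, stood at 21.3, 14.4 and 19.7 TPM in vehicle tumors m1 to m3, 28.1, 45.9 and 32.01 in VCR tumors m4 to m6, 36.2, 30.9 and 34.4 in RCM1 tumors m7 to m9 and 46.9, 40.5 and 20.03 in combination tumors m10 to m12. Every VCR tumor and every RCM1 tumor lay above every vehicle tumor. Among all genes tested, in CPM, that held for 13.5% with VCR and 5.56% with RCM1. DESeq2 with all 12 tumors called 7 of the list higher in the interaction, 1 higher and 1 lower with VCR and 1 higher with RCM1. In the compared groups alone it called 4 higher in the combination against VCR, 3 higher against RCM1, 1 higher against vehicle, 1 higher and 1 lower with VCR and 1 higher with RCM1, and limma-voom called 0. The list had, at an unadjusted p under 0.05, 2 higher and 3 lower with VCR, 1 higher with RCM1, 9 higher with the combination against vehicle, 14 against VCR, 22 against RCM1, and 17 higher and 2 lower in the interaction. Among all genes tested, the shares at that p were 22.1% with VCR, 9.78% with RCM1 and 7.3% with the combination against vehicle. They were 5.26% for the combination against VCR, 2.07% against RCM1 and 13.8% for the interaction. The counts of all other lists are to be read beside these shares. The medians of the other type I list were -0.17 with VCR, -0.18 with RCM1 and 0.33 with the combination, and m12 was the highest tumor in TPM for 26 of the 37 listed genes. For the 20 other interferon gamma genes, edgeR called 0 in each comparison, 3 were lower with RCM1, 8 higher in the combination against RCM1 and 8 higher in the interaction at an unadjusted p under 0.05, and the medians were -0.54, -1.12 and 0.34. By DESeq2 with all 12 tumors 1 of them was called lower with RCM1 and 1 higher in the interaction, and limma-voom called 0. For the 16 other MHC class I genes, edgeR and limma-voom called 0, DESeq2 with all 12 tumors called 1 lower with VCR, and at an unadjusted p under 0.05 there was 1 in each treatment against vehicle, 1 in the combination against VCR, 3 against RCM1 and 1 in the interaction. The medians were 0.017, -0.23 and 0.16.

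Markers of immune cells were set beside the members, because interferon gamma comes from T and NK cells. Of 14 listed T and NK cell genes 13 were tested, and their summed TPM was 67.0, 18.9 and 9.49 in vehicle tumors m1 to m3, 41.1, 15.5 and 30.99 in VCR tumors m4 to m6, 18.6, 12.3 and 22.9 in RCM1 tumors m7 to m9 and 16.6, 43.7 and 54.9 in combination tumors m10 to m12. The sum was highest in m1, m12 and m11 and lowest in m3, m8 and m5, and Nkg7 was the most abundant gene. Cd3e, part of the T cell receptor complex, stood at 4.26, 0.390 and 0.196 TPM in vehicle tumors m1 to m3, 3.19, 0.636 and 1.92 in VCR tumors m4 to m6, 0.823, 2.099 and 1.45 in RCM1 tumors m7 to m9 and 0.597, 3.65 and 3.77 in combination tumors m10 to m12. Ptprc (CD45), carried by all leukocytes, stood at 30.4, 22.8 and 16.6 TPM in vehicle tumors m1 to m3, 20.2, 12.6 and 19.7 in VCR tumors m4 to m6, 19.7, 18.1 and 20.5 in RCM1 tumors m7 to m9 and 20.6, 24.9 and 24.2 in combination tumors m10 to m12, and the 5 leukocyte markers summed to between 502 TPM in m2 and 771 TPM in m12, with Cd52 the most abundant. No defining marker of either list was at 0 in all tumors. edgeR called 0 genes of either list in any comparison, and limma-voom and DESeq2 called 0. At an unadjusted p under 0.05 were 1 leukocyte gene with VCR and 1 in the interaction, and 1 T and NK cell gene with the combination against vehicle and 1 against RCM1. Of the 13 T and NK cell genes tested, 11 were negative with RCM1 (median log2 fold change -0.35) and 8 positive with VCR (0.12). With the combination, 11 were positive against vehicle (0.52), 12 against VCR (0.43) and 13 against RCM1 (1.06). In the interaction 12 were positive (0.82). The part of these cells in the levels of the 40 members was not tested.

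Macrophage and monocyte markers were abundant in every tumor. Adgre1 (F4/80) stood at 69.0, 56.5 and 55.4 TPM in vehicle tumors m1 to m3, 55.3, 45.3 and 57.7 in VCR tumors m4 to m6, 65.6, 52.9 and 58.2 in RCM1 tumors m7 to m9 and 64.4, 71.7 and 66.6 in combination tumors m10 to m12, and the 10 genes summed to between 2589 TPM in m2 and 3891 TPM in m8, with Lyz2 the most abundant. Tumor m8, lowest for most members, was the highest in that sum, and m12, m11 and m1 followed at 3553, 3523 and 3454 TPM. The 8 dendritic cell genes summed to between 14.0 TPM in m3 and 37.8 TPM in m1, with Itgax the most abundant, and Siglech, a marker of plasmacytoid cells that make type I interferon, stood at 0.614, 0.477 and 0.170 TPM in vehicle tumors m1 to m3, 0.689, 0.355 and 0.346 in VCR tumors m4 to m6, 0.310, 0.194 and 0.381 in RCM1 tumors m7 to m9 and 0.583, 0.404 and 0.368 in combination tumors m10 to m12. edgeR, limma-voom and DESeq2 called 0 genes of both lists, and at an unadjusted p under 0.05 there was 1 macrophage gene with VCR, 2 with the combination against vehicle, 1 against VCR and 2 against RCM1. The part of these cells was not tested.

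Markers of tissues that may lie next to the tumor varied widely between tumors. The 10 adult muscle fibre genes summed to 257, 132 and 98.3 TPM in vehicle tumors m1 to m3, 3863, 10777 and 1759 in VCR tumors m4 to m6, 253, 288 and 18788 in RCM1 tumors m7 to m9 and 2277, 4681 and 528 in combination tumors m10 to m12, with Acta1 the most abundant. With VCR, edgeR called 4 of the 10 higher, with log2 fold changes of 7.37 for Acta1 (SE 2.08, adjusted p 0.0947), 7.59 for Mylpf (SE 2.099, adjusted p 0.092), 6.22 for Mb (SE 1.38, adjusted p 0.0725) and 5.83 for Myh1 (SE 1.08, adjusted p 0.0651). DESeq2 with all 12 tumors called 10 of the 10 with VCR and limma-voom called 1. Of the 6 rhabdomyosarcoma markers edgeR called, with VCR, Myod1 (7.07, SE 1.75, adjusted p 0.0822), Myog (5.58, SE 1.12, adjusted p 0.0693) and Des (4.70, SE 1.29, adjusted p 0.091). Of the 5 tested, 2 were negative with VCR (lowest -0.25) and 2 with the combination (lowest -0.31). With RCM1, 3 were higher at an unadjusted p under 0.05 and 1 was lower (-0.34). Among 6 endothelial genes edgeR called, with VCR, Tie1 (0.81, SE 0.19, adjusted p 0.0766). Each of these edgeR calls was lost without m2, m4, m5 or m11, and some also without m1, m3, m10 or m12. A term for Y-linked transcripts also ended the calls of Tie1, Acta1, Mylpf, Myod1 and Des, and DESeq2 with all 12 tumors did not call Myod1. No gene of these lists was called by edgeR with RCM1 or the combination against vehicle, where DESeq2 with all 12 tumors called 8 and 2 of the muscle fibre genes higher. At an unadjusted p under 0.05, 10 muscle fibre genes were higher with VCR, 10 with RCM1 (median 7.03) and 9 with the combination (median 5.73). Of the endothelial genes 4 were higher at that p with VCR, 3 with RCM1 and 3 with the combination. All 6 adipocyte genes were negative with RCM1 (median -3.08), 3 of them at that p, against 0 with VCR or the combination. In the interaction, positive for all 40 members, the muscle fibre genes had a median of -8.45, with 10 of 10 lower at an unadjusted p under 0.05, 0 called by edgeR and limma-voom and 8 called lower by DESeq2 with all 12 tumors. For the 5 tested rhabdomyosarcoma markers the interaction median was -4.39, with 3 lower at that p, 0 called by edgeR and limma-voom and 2 called lower by DESeq2. Pecam1 stood at 25.7, 18.9 and 19.5 TPM in vehicle tumors m1 to m3, 25.3, 31.6 and 24.5 in VCR tumors m4 to m6, 27.9, 24.7 and 28.8 in RCM1 tumors m7 to m9 and 26.9, 27.2 and 25.0 in combination tumors m10 to m12. Adipoq, an adipocyte hormone, stood at 4.74, 11.6 and 0.143 TPM in vehicle tumors m1 to m3, 4.82, 3.21 and 2.03 in VCR tumors m4 to m6, 0.347, 0.971 and 0.617 in RCM1 tumors m7 to m9 and 7.57, 0.846 and 0.0941 in combination tumors m10 to m12, and the 6 adipocyte genes, of which Fabp4 was the most abundant, summed to between 19.0 TPM in m3 and 322 TPM in m2. The keratinocyte gene Krt14 never passed 0.325 TPM and the 6 keratinocyte genes never summed past 4.75 TPM. The part of these tissues in the levels of the members was not tested.

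Across the 12 tumors, 12 relations were computed between log2(CPM + 0.1) of Irf7, Cxcl9 and H2-K1, of these genes with each other and with Ptprc, Cd3e and Ckm. Cxcl9 and H2-K1 varied together, with Pearson r 0.906 and Spearman rho 0.958 (permutation p 3e-05 for each, adjusted over the 12 relations 0.00036). Their r was 0.894 without m1 and m8 (permutation p 0.00076) and 0.902 within groups (exact permutation p 0.00386). Irf7 was less tied to them, with r 0.568 and rho 0.399 to Cxcl9 (permutation p 0.0712 and 0.2, adjusted 0.142 and 0.344) and r 0.557 and rho 0.42 to H2-K1 (permutation p 0.0486 and 0.177, adjusted 0.117 and 0.344). Without m1 and m8 those r values were 0.572 and 0.582, and within groups 0.482 and 0.557. The difference between the relations was not tested. Irf7 was the only type I gene in these relations, so they do not describe its list. It had the largest ratio of m12 to m1 among the type I genes (2.88). It was also not among the 10 of 20 type I genes whose 3 highest levels fell in m1, m11 and m12.

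With the leukocyte marker Ptprc, H2-K1 had r 0.758 and rho 0.874 (permutation p 0.00356 and 0.00049, adjusted 0.0214 and 0.00196), and r was 0.854 without m1 and m5 and 0.85 within groups. Cxcl9 had r 0.652 and rho 0.881 with Ptprc (permutation p 0.025 and 0.00031, adjusted 0.075 and 0.00186), and r was 0.813 without m1 and m5 and 0.721 within groups. For Irf7 with Ptprc, r was 0.334 and rho 0.266 (permutation p 0.259 and 0.405, adjusted 0.388 and 0.573), and r was 0.688 without m1 and m5 and 0.185 within groups. With the T cell marker Cd3e, r and rho were 0.66 and 0.713 for H2-K1 (permutation p 0.021 and 0.0113, adjusted 0.075 and 0.034), and r was 0.713 without m2 and m3 and 0.778 within groups. For Cxcl9 with Cd3e they were 0.456 and 0.629 (permutation p 0.137 and 0.0326, adjusted 0.236 and 0.0782), and r was 0.544 without m2 and m3 and 0.605 within groups. For Irf7 with Cd3e they were 0.318 and 0.252 (permutation p 0.346 and 0.43, adjusted 0.461 and 0.573), with r 0.259 without m2 and m3 and 0.241 within groups. With the muscle gene Ckm, r was 0.125 for Irf7, 0.163 for Cxcl9 and 0.0677 for H2-K1, and rho 0.21, 0.0979 and 0.0769 (permutation p of r 0.71, 0.613 and 0.832, of rho 0.515, 0.767 and 0.819, adjusted 0.775, 0.736 and 0.832 for r and 0.617, 0.819 and 0.819 for rho). Without m2 and m3 those r values were -0.067, 0.17 and -0.201, and within groups -0.149, 0.476 and 0.199.

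The members share places on the genome (build GRCm38). On chromosome 17 lie 7 of the 10 MHC class I members, between Tapbp and H2-D1 (chr17:33919478-35267497), and Psmb9 and Tap1 start head to head. The guanylate-binding members Gbp2, Gbp3, Gbp5 and Gbp7 lie side by side (chr3:142496934-142638008), Cxcl9 and Cxcl10 are neighbours (chr5:92321331-92348889), Ifit1, Ifit2 and Ifit3 sit together (chr19:34550550-34650009), and so do Oasl1 and Oasl2 (chr5:114896926-114937911).

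Some members also share sequence with relatives, which makes their estimated counts less certain. Of the distinct 31-base words of its transcripts, 68.8% in Oas1a and 61.8% in Ifit3 also occur in another gene, mostly Oas1g and Ifit3b. For H2-D1 and H2-K1 the shares were 26.9% and 22.8%, with each other as the closest relative. In Tapbp 26.9%, in Igtp 15.9% and in Gbp7 14.7% of the words recur elsewhere. No word of Bst2, Ifit2, Psmb10 or B2m recurs in another gene. The effect of shared reads on the levels was not tested.

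Promoters were searched because interferon targets often carry known DNA elements, and 34 of the 40 members matched a RefSeq promoter sequence, covering 250 bases before the start and 50 after it on GRCm38. Those without an entry were Mx1, Dhx58, Usp18, Zbp1, Tap2 and Nlrc5. The core of the interferon-stimulated response element (ISRE), GAAANNGAAA on either strand, was found in 9 of 16 type I genes (56.2%), 7 of 10 interferon gamma genes (70%) and 1 of 8 MHC class I genes (12.5%, B2m), against 3.99% of all genes with a promoter. The interferon gamma-activated site (GAS), TTCNNNGAA, was found in 3 of 16 (18.8%), 4 of 10 (40%) and 1 of 8 (12.5%, Psmb8), against 9.55% of all. A match shows only that the letters are there, not that a factor binds. The letters had to match exactly, so a promoter without a match may hold a variant of either element, or one outside the bases searched.

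The bases just before the start of 5 members are shown, 5′ to 3′ along the gene on GRCm38, with matches to either motif in capitals, so that the ISRE-bearing and GAS-bearing kinds can be compared. Isg15 (chr4:156200819-156200938, minus strand) has 3 overlapping ISRE cores in a single run. Gbp2 (chr3:142620543-142620662, plus strand) has 1 ISRE core, and its relative Gbp7 (chr3:142530216-142530335, plus strand) has 2 GAS matches followed by 1 ISRE core. Irf1 (chr11:53769894-53770013, plus strand, the first of its 2 listed promoters) and Psmb8 (chr17:34198075-34198194, plus strand) each have 1 GAS match and no ISRE core.
Isg15: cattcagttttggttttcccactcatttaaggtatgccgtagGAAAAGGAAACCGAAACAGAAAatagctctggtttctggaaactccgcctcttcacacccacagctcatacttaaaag
Gbp2: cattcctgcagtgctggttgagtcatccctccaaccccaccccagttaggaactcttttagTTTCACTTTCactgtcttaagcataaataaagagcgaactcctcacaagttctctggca
Gbp7: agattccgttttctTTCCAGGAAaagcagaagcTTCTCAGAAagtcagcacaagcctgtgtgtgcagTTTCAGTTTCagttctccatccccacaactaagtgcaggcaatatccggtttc
Irf1: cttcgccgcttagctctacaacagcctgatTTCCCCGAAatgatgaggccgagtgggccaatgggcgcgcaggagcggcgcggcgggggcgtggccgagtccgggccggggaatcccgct
Psmb8: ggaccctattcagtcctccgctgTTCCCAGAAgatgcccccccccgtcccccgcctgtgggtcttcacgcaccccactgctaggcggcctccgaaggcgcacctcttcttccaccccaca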

How the data were processed

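The authors deposited estimated counts (expected counts) per transcript, which kallisto had computed by assigning the reads of each tumor to transcripts of GRCm38, according to the submitters' processing notes. As deposited by the authors, the TPM values were those counts divided by effective length and scaled to the same total in each tumor, and effective length was given per transcript. The submitters' notes also name DESeq2. Transcripts were assigned to genes for 120289 of 120299 identifiers, and estimated counts and TPM were summed per gene over RefSeq transcripts, giving 38894 genes. Total estimated counts lay between 29342195 and 32108055. Groups were taken from the sample titles. Counts were tested in R 4.3.3 with edgeR 4.0.16 (TMM scaling, filter on low counts, quasi-likelihood F test, 1 fit of all 12 tumors with 4 groups), and p values were adjusted by Benjamini-Hochberg over all 17599 genes tested, at a threshold of 0.1. Alternatives were DESeq2 1.42.0 with all tumors or only the groups compared, limma-voom (limma 3.58.1), other scaling, filters and length offsets, leaving out each tumor, leaving out m5 and m9, and a term for Y-linked transcripts added after the data were seen. Python 3.11.15 with pandas 2.3.3, numpy 2.4.6, scipy 1.17.1 and matplotlib 3.10.9 made the summaries, figures and permutation tests (two-sided, 100000 permutations, or all permutations within groups). The members and lists were chosen with earlier results of these data known. Genes given in full are, in each list, the 2 with the highest mean TPM and the 2 with the largest log2 fold change against vehicle. Genes of the other lists were named as ligands, receptors or markers, or after their values were seen when edgeR called them.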

Additional observations from a re-analysis of the deposited data

How the results depend on the processing

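With 3 tumors per group, only large or very even differences could pass a test, and at the depth of these libraries the low ligand genes stay below the filter. No paired analysis was possible because no label links a tumor of one group to a tumor of another. Many values changed when 1 tumor was left out, and the cause was not tested. Leaving out 1 tumor at a time, the type I median ranged from -0.42 to -0.050 with VCR, -0.44 to -0.13 with RCM1 and 0.056 to 0.63 with the combination. The interferon gamma median ranged from -0.88 to 0.17, -1.44 to -0.24 and -0.037 to 1.14, and the MHC class I median from -0.74 to 0.38, -1.25 to -0.095 and -0.30 to 0.87. The number of members called ranged from 0 to 1 with VCR (1 without m6) and was 0 otherwise, while DESeq2 called 1 or 2 with VCR, 3 for the combination against VCR and 5 for the interaction.

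Single genes varied in the same way, many of them across 0. With VCR, the leave-one-out values ranged from -0.19 to -0.019 for Isg15, -1.30 to -0.70 for Ifi44, -1.66 to -0.059 for Nlrc5, -0.25 to 0.22 for Bst2, -0.037 to 0.16 for Irf7, -0.22 to 0.14 for Irf1, -0.998 to 0.34 for Gbp2, -1.21 to 0.21 for Cxcl9, -1.46 to 0.082 for Gbp7, -0.49 to 0.26 for B2m, -0.70 to 0.42 for H2-D1 and -0.98 to 0.46 for H2-K1. With RCM1 they ranged from -0.51 to -0.051 for Bst2, -0.41 to -0.075 for Isg15, -0.34 to -0.092 for Irf7, -0.86 to -0.13 for Ifi44, -0.34 to 0.019 for Irf1, -1.57 to -0.23 for Gbp2, -2.38 to -0.65 for Cxcl9, -1.79 to -0.25 for Gbp7, -0.85 to -0.093 for B2m, -1.21 to -0.088 for H2-D1, -2.49 to -0.88 for Nlrc5 and -1.58 to -0.14 for H2-K1. With the combination they ranged from 0.11 to 0.94 for Isg15, 0.36 to 1.17 for Irf7, 0.22 to 0.75 for Ifi44, 0.073 to 1.53 for Gbp2, -0.0014 to 0.79 for Bst2, -0.054 to 0.40 for Irf1, -0.30 to 1.12 for Cxcl9, -0.44 to 1.10 for Gbp7, -0.27 to 0.60 for B2m, -0.40 to 0.85 for H2-D1, -0.87 to 0.89 for Nlrc5 and -0.51 to 1.06 for H2-K1. For the combination against VCR, B2m ranged from -0.035 to 0.66 and H2-D1 from -0.068 to 0.83. Without m5 and m9, the tumors with the most muscle RNA, Irf7 was at -0.042 with VCR. A term for Y-linked transcripts, chosen after seeing the data, put Cxcl9 at -0.038 and Gbp7 at -0.062 with the combination, and a filter at a mean count of 50 put Gbp7 at -0.012. The r with Ptprc was 0.688 for Irf7 and 0.813 for Cxcl9 without m1 and m5, against 0.185 and 0.721 within groups, and for H2-K1 it was 0.854 and 0.85. For H2-K1 with Cd3e it was 0.713 without m2 and m3 and 0.778 within groups.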
